A study of Mus musculus with 12 samples.

Results

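The mitochondrial ribosome translates the few messenger RNAs transcribed from mitochondrial DNA, all of which encode subunits of the respiratory chain and ATP synthase. Its ribosomal RNAs also come from mitochondrial DNA, but its proteins are encoded in the nucleus, made in the cytosol and imported. They form a large subunit, which joins amino acids into protein, and a small subunit, which reads the messenger RNA, and they carry symbols beginning with Mrpl and Mrps. Activated T cells build up mitochondrial translation as they grow and divide.

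The genes described here are the rows of the count table whose symbol begins with Mrpl or Mrps followed by a number, without processed pseudogenes. They number 77 of the 24561 genes in the table, 48 Mrpl genes and 29 Mrps genes. The rule uses no measured value.

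RNA was sequenced by SMART-Seq2 from CXCR5hi PD-1hi OT-II follicular helper T (Tfh) cells, which carry an ovalbumin-specific T cell receptor. The cells were sorted from draining lymph nodes of CD45.1 *Sap*-/- recipients at day 3 after immunization with NP-OVA plus LPS in alum. The transferred T cells were CD4-Cre × *Bcl6* fl/+ (labelled BCL6-insufficient) or CD4-Cre (labelled wild-type), so both groups carried the CD4-Cre transgene, which acts in T cells, and the recipients were *Sap*-/- in both. The strain label is C57BL/6, ages are not given in the sources used here, and each group had 3 recipient mice with 2 technical repeats of about 200 cells, 12 libraries in all. Nothing in the sources states that the recipients of a group had separate donors, so p-values measure the spread between recipients.

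The transcript of the targeted gene went against the labels. *Bcl6*, on chromosome 16 of GRCm38 from 23965052 to 23988852, stood at 146.2 normalised CPM (counts scaled to library size) in the lowest mouse labelled BCL6-insufficient and at 75.6 in the highest mouse labelled wild-type. The means were 149 ± 2.18 (SD, n = 3 mice) and 62.4 ± 11.5 (SD, n = 3), a log2 fold change of 1.25 (SE 0.12, adjusted p = 6.3e-07 by edgeR's quasi-likelihood test after Benjamini-Hochberg adjustment). Reads were counted over the gene as a unit, so a deleted and an intact allele cannot be told apart. Groups are therefore named by their labels, and every direction given here rests on those labels.

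The libraries held between 3343375 and 8315722 counts. Summed markers of T cells (*Cd3e*, *Cd3d*, *Cd4* and *Trac*) lay between 7961 and 8820 CPM in the mice labelled BCL6-insufficient and between 5524 and 6886 in those labelled wild-type, but only *Trac* was called higher (log2 fold change 0.55), and *Cd4* was called lower (-0.34) by edgeR's quasi-likelihood test. The lower call was lost without mouse 2 or 3 labelled BCL6-insufficient, without wild-type mouse 1 or 3, from repeat 1 alone, with upper-quartile scaling and with transcript length trends removed, 2 were called lower by DESeq2, and the higher call was lost on log2(TPM + 1), where TPM is the deposited value scaled to gene length and library. The 5 Tfh markers lay between 976 and 1058 CPM against 901 to 929, with *Bcl6* and *Icos* (0.64) called higher and *Cxcr5* (-0.40) and *Pdcd1* (-0.42) called lower by edgeR's quasi-likelihood test. The 8 B cell markers lay between 506 and 695 CPM against 598 to 832 with 0 of the 5 that could be tested called by edgeR's quasi-likelihood test (1 lower by DESeq2 and 1 at an unadjusted p under 0.05). Without wild-type mouse 3, 3 of these 5 were called higher and their median log2 fold change went from 0.43 to 2.24, and without mouse 2 labelled BCL6-insufficient 1 was called lower and the median was -0.96. The 8 myeloid markers lay between 107 and 130 CPM against 80.9 to 87.5 with 1 of the 3 tested called by edgeR's quasi-likelihood test, *Lyz2*. None of the 3 was called by DESeq2, without mouse 1 labelled BCL6-insufficient, from repeat 2 alone or on the TPM scales, and 2 were with GC and length trends removed. The part of other cells in the results on the ribosomal protein genes was not tested, and in bulk samples fewer cells of a type and less RNA per cell cannot be told apart.

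All 77 genes passed edgeR's expression filter, and each had at least 183 counts in every mouse. Their mean level ran from 19.9 to 309 CPM with a median of 70.6 CPM. After TMM normalization of the repeats summed by mouse, edgeR's quasi-likelihood test called 15 of these genes higher in the mice labelled BCL6-insufficient at an adjusted p under 0.05, called 1 lower and left 61 uncalled. Among all 12719 genes tested, 9.17% were called higher and 8.82% lower. The ribosomal protein genes thus had 19.5% of their number called higher and 1.3% called lower. Deeper counts give more calls, and among the 5582 tested genes within the same range of mean CPM the shares were 12.8% higher and 14% lower, a comparison chosen after the values were seen.

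The log2 fold change was above 0 for 58 of the 77 genes, or 75.3%, against 51% of all genes tested. It ranged from -0.37 to 0.71 with quartiles of 0.0012 and 0.29, and its SE had a median of 0.12. On the counts the median was 0.12 against 0.011 for all genes tested, but on the deposited TPM scale it was -0.0074 against -0.068 for all genes, with 34 of the 77 above 0. Without mouse 3 labelled BCL6-insufficient the median on the counts was 0.049, with 50 of the 77 above 0. The sign of the family's median therefore turned in the TPM fit, which changed the unit, the scaling and the test together, while the place of that median above the one of all genes did not turn. The 3 mice of one label all lay above the 3 of the other for 26 members and below for 3, where 17.4% and 17% of all genes tested did so.

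**Figure D1:**
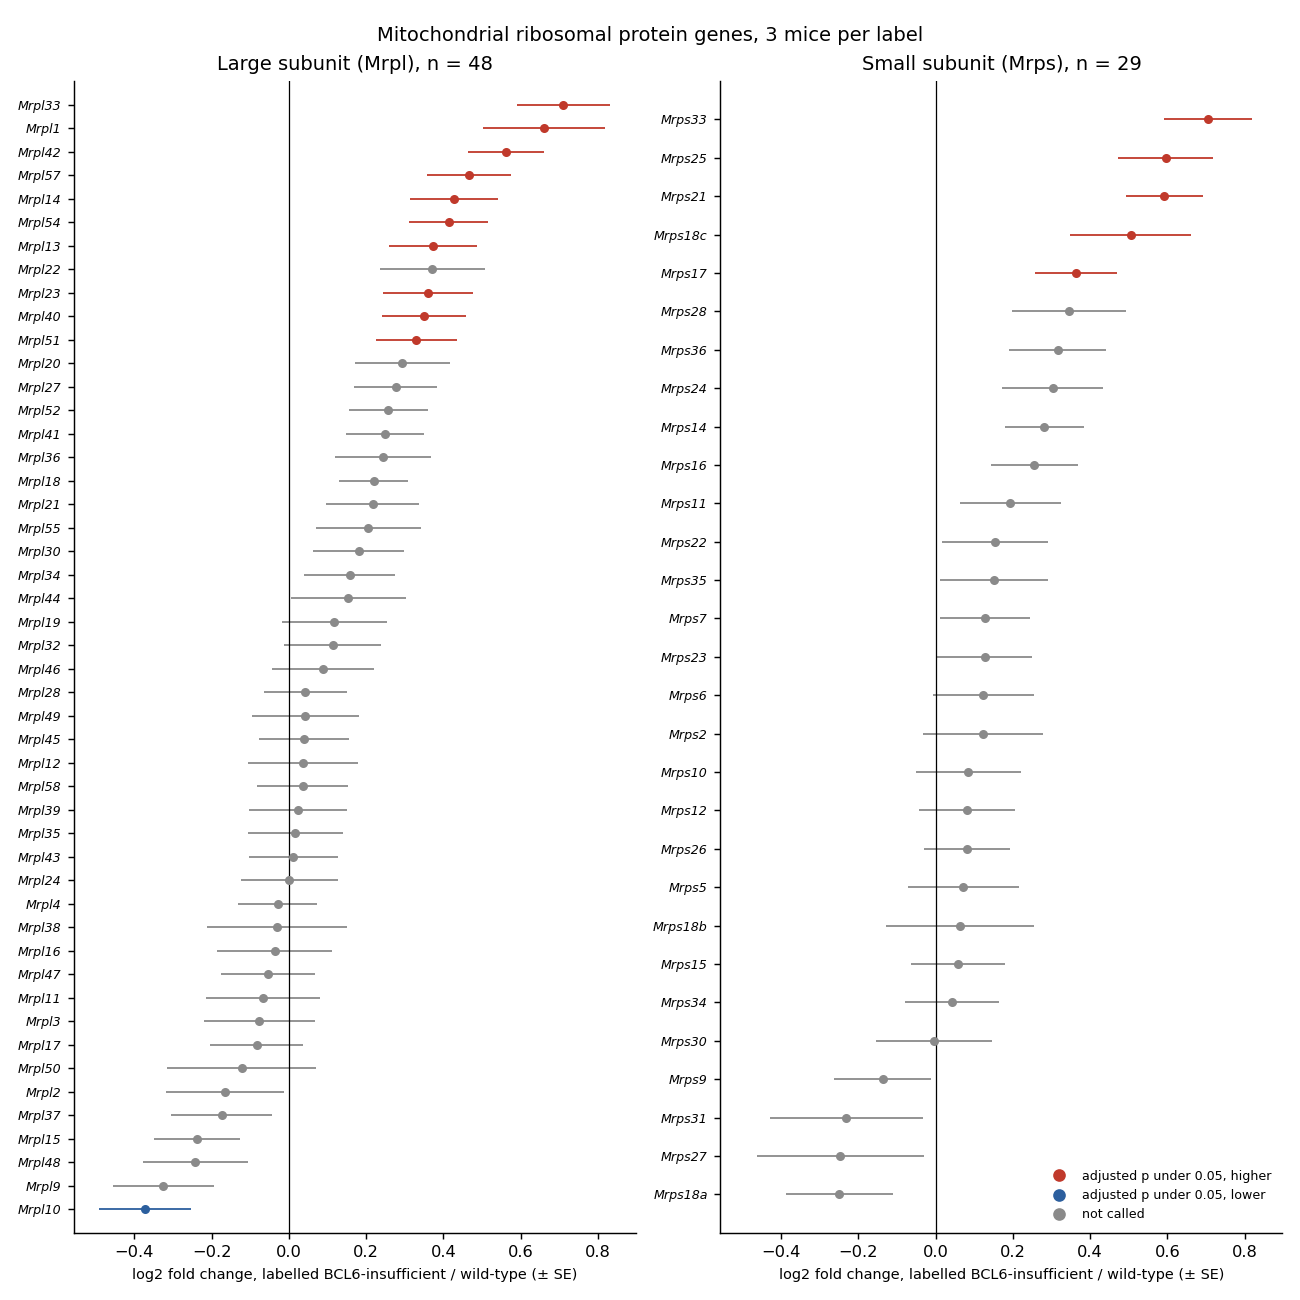
The log2 fold change of each of the 77 genes, labelled BCL6-insufficient over wild-type, is plotted with its SE on the horizontal axis, the 48 Mrpl genes at left and the 29 Mrps genes at right. Red points were called higher (10 and 5), the blue point lower (*Mrpl10*), and grey points were not called.

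The stretches shown here, around the annotated start of transcription, are those of the called genes that hold a searched motif, with the motif letters in capitals. They were read 5′ to 3′ on the strand of the gene from RefSeq promoter windows of GRCm38.p6, each reaching 250 bases before the start and 50 bases from it on. The motifs were CCGGAAG (ETS factors), GCATGCG (core of NRF1), AAGATGG (core of YY1) and CACGTG (E-box), searched on both strands.
Mrps33: gggggcgggcCTTCCGGggacg
Mrps21: gtagcttccgCTTCCGGtccgcagaga
Mrpl33: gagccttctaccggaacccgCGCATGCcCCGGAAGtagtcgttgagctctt
Mrpl42: agattgaagcAAGATGGcgagcgcgcg
Mrpl57: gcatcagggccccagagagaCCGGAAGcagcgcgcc
Mrps18c: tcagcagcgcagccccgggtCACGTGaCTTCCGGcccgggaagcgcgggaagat
Mrpl51: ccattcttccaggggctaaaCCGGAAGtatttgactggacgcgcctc
Mrpl10: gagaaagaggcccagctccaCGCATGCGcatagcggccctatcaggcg

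The stretch of *Mrpl33* lies at chr5:31613920-31613970 and holds the ETS letters 3 bases before the start, next to the NRF1 letters 11 bases before it on the other strand. In *Mrps18c*, at chr5:100798576-100798629, the E-box begins 163 bases before the start and the ETS letters follow it on the other strand at 156. The stretch of *Mrpl51* lies at chr6:125192090-125192136 with the ETS letters 90 bases before the start, and that of *Mrpl57* at chr14:57826223-57826258 with the letters 5 bases after it. Those of *Mrps21* (chr3:95871480-95871506), *Mrps33* (chr6:39810887-39810908) and *Mrpl42* (chr10:95501906-95501932) hold their letters 19, 39 and 28 bases after the start. *Mrpl10*, the gene called lower, has overlapping NRF1 letters on both strands at chr11:97041427-97041474, 135 bases before the start.

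The ETS letters stood in the windows of 25 of the 68 genes with a window, or 36.8%, against 22.5% of the 8825 tested genes with a window and 9.93% of all 27025 genes with one. For the YY1 letters the shares were 19.1% of the ribosomal protein genes, 8.83% of tested genes and 7.28% of all genes. For the NRF1 letters they were 11.8%, 7.78% and 4.01%, and for the E-box 7.35%, 12.0% and 8.09%. Of the 13 genes called higher that had a window, 6 (46.2%) held the ETS letters, against 19 of the 55 others (34.5%). The YY1 letters went the other way, in 1 of 13 (7.69%) against 12 of 55 (21.8%). NRF1 stood at 7.69% against 12.7% and the E-box at 7.69% against 7.27%. No motif was tested against the calls. A match to letters describes the sequence and does not show that a factor binds there. The genes without a window in the table were *Mrpl54*, *Mrpl13*, *Mrps28*, *Mrpl15*, *Mrps35*, *Mrpl19*, *Mrps34*, *Mrpl4* and *Mrpl38*.

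In the large subunit, 10 of 48 genes were called higher and 1 lower, and 34 had a log2 fold change above 0. The higher calls fell to 5 without mouse 3 labelled BCL6-insufficient and to 6 without wild-type mouse 1 or 3. From repeat 1 alone they fell to 2 and on the TPM scales to 1. Over all genes tested, 2.94% to 7.3% were called higher in these fits. *Mrpl33*, on chromosome 5 from 31596935 to 31664384, encodes a small protein with a bacterial counterpart, bL33. It stood at 75.2, 87.6 and 92.3 CPM in the 3 mice labelled BCL6-insufficient and at 52.0, 49.8 and 53.9 CPM in the mice labelled wild-type. The groups did not overlap, and the log2 fold change of 0.71 (SE 0.12, adjusted p = 0.000286 by edgeR's quasi-likelihood test after Benjamini-Hochberg adjustment) was the highest of the 77. The annotation places an exon of *Gm43809* on the same strand over it, and reads of both could not be told apart.

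*Mrpl42*, on chromosome 10 from 95480805 to 95501940, encodes a protein of the large subunit with no bacterial counterpart. Its CPM was 248, 212 and 250.1 in the mice labelled BCL6-insufficient and 162, 159 and 160.4 in those labelled wild-type. The wild-type mice lay close together and below every mouse of the other label, with a log2 fold change of 0.56 (SE 0.10, adjusted p = 0.000369 by edgeR's quasi-likelihood test after Benjamini-Hochberg adjustment). *Mrpl57*, which encodes another protein particular to mitochondria, had 139, 144 and 164 CPM against 106, 119.8 and 97.3 CPM. Its log2 fold change was 0.47 (SE 0.11, adjusted p = 0.00466 by the same edgeR test).

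*Mrpl1*, the counterpart of uL1 of the ribosomal stalk through which deacylated tRNA leaves, also differed in every mouse. It had 34.1, 38.5 and 34.9 CPM in the mice labelled BCL6-insufficient and 23.4, 21.9 and 22.6 CPM in those labelled wild-type, for a log2 fold change of 0.66 (SE 0.16, adjusted p = 0.00537 by edgeR's quasi-likelihood test). *Mrpl54*, a protein particular to mitochondria, had 161, 172 and 192 CPM against 132, 140.3 and 122 CPM. The groups did not overlap, and its log2 fold change was 0.41 (SE 0.10, adjusted p = 0.00707 by edgeR's quasi-likelihood test). The remaining large subunit genes called higher, named to complete the count and after their values were seen, were *Mrpl14*, *Mrpl13*, *Mrpl23*, *Mrpl40* and *Mrpl51*, with log2 fold changes between 0.33 (*Mrpl51*) and 0.43 (*Mrpl14*). Of these, *Mrpl14* kept its call in 16 of 20 alternative settings, and the others in 8 to 11. Exons of *Tmem63b* and *Mtbp* lie over *Mrpl14* and *Mrpl13* on the other strand, and *Mir3098* over *Mrpl51* on the same strand.

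*Mrpl10* was the only gene called lower. It encodes uL10, the base of the stalk that carries the dimers of the *Mrpl12* protein and recruits translation factors. *Mrpl10* had 68.1, 71.4 and 65.2 CPM in the mice labelled BCL6-insufficient and 83.1, 81.1 and 100.8 CPM in those labelled wild-type. The log2 fold change was -0.37 (SE 0.12, adjusted p = 0.0317 by edgeR's quasi-likelihood test after Benjamini-Hochberg adjustment). The call held in 10 of 20 alternative settings and was lost without either of the mice numbered 1 or 2 labelled BCL6-insufficient, without mouse 3 of either label and with upper-quartile scaling. An exon of *Gm11574* lies over it on the other strand, and the strandedness of the counting is not given in the sources used here.

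Its partner *Mrpl12*, whose product also binds the mitochondrial RNA polymerase, had 113, 114 and 185 CPM against 125, 133 and 142 CPM. The high value came from mouse 3, the groups overlapped, and the log2 fold change was 0.037 (SE 0.14) with all mice and -0.24 without that mouse. *Mrpl58*, a peptidyl-tRNA hydrolase built into the large subunit that frees stalled chains, had a log2 fold change of 0.036 (SE 0.12) and overlapping groups. *Mrpl9* stood lower in every mouse labelled BCL6-insufficient, at 46.2, 62.3 and 59.1 CPM against 66.6, 73.3 and 69.7 CPM, but its log2 fold change of -0.32 was not called (adjusted p = 0.0891 by edgeR's quasi-likelihood test).

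In the small subunit, 5 of 29 genes were called higher and 0 lower (0 also by DESeq2 and 0 at an unadjusted p under 0.05), and 24 had a log2 fold change above 0. Without mouse 3 labelled BCL6-insufficient 4 were called higher and 1 lower, *Mrps27*, whose log2 fold change went from -0.25 to -0.66. The higher calls fell to 3 without wild-type mouse 2 or 3, from repeat 1 alone and on the TPM scales. *Mrps33*, on chromosome 6 from 39801804 to 39810988, encodes a small protein with no bacterial counterpart. It had 98.1, 104 and 117 CPM in the mice labelled BCL6-insufficient and 61.8, 69.3 and 64.5 CPM in those labelled wild-type. No mouse overlapped, and the log2 fold change was 0.70 (SE 0.11, adjusted p = 0.000174 by edgeR's quasi-likelihood test after Benjamini-Hochberg adjustment).

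*Mrps21*, on chromosome 3 from 95862634 to 95871519, is the counterpart of bacterial bS21. Per kilobase of exon it was the most abundant of the 77, at 230.4 CPM per kilobase against a median of 33.7. By mouse it had 215, 186 and 213 CPM against 134, 137 and 136 CPM, a log2 fold change of 0.59 (SE 0.10, adjusted p = 0.000228 by edgeR's quasi-likelihood test after Benjamini-Hochberg adjustment). The wild-type mice nearly coincided and every mouse of the other label lay above them. *Mrps25*, a protein particular to mitochondria, had 86.1, 70.1 and 81.2 CPM against 54.3, 54.0 and 49.0 CPM, with no overlap and a log2 fold change of 0.60 (SE 0.12, adjusted p = 0.00162 by edgeR's quasi-likelihood test). Exons of *Nr2c2* lie over *Mrps25* on the other strand.

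*Mrps17* encodes the counterpart of uS17, which binds the ribosomal RNA of the small subunit. Its CPM was 103, 104 and 106 in the mice labelled BCL6-insufficient and 78.5, 83.2 and 81.2 in those labelled wild-type, for a log2 fold change of 0.36 (SE 0.11, adjusted p = 0.0192 by edgeR's quasi-likelihood test). The 3 mice of each label lay close together, with no overlap, but the call held in 11 of 20 alternative settings and in 2 of the 6 fits that left out a mouse.

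Mammals have 3 paralogs related to bacterial bS18, and 1 of their transcripts was called. *Mrps18c* was called higher, with 39.7, 34.98 and 36.8 CPM against 29.1, 23.8 and 25.7 CPM and a log2 fold change of 0.51 (SE 0.16, adjusted p = 0.027 by edgeR's quasi-likelihood test). An exon of *Gm43511* lies over *Mrps18c* on the same strand, so the reads of both could be split or mixed. The call held in 8 of 20 alternative settings and in 2 of the 6 fits that left out a mouse. *Mrps18b* had 24.5, 24.8 and 35.8 CPM against 23.5, 23.6 and 33.9 CPM, and mouse 3 was the high one under both labels. Its log2 fold change was 0.063 (SE 0.19). *Mrps18a*, whose product sits in the large subunit, had 43.6, 51.2 and 59.0 CPM against 58.0, 55.0 and 69.4 CPM, and its log2 fold change of -0.25 (SE 0.14) was not called (adjusted p = 0.234 by edgeR's quasi-likelihood test). The differences between the paralogs were not themselves tested.

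*Mrps30*, another protein of the large subunit in spite of its symbol, had a log2 fold change of -0.0043 (SE 0.15) and overlapping groups. *Mrps36*, whose product belongs to the 2-oxoglutarate dehydrogenase complex and not to the ribosome, had 90.6, 68.4 and 88.9 CPM against 63.3, 66.8 and 69.2 CPM. One mouse labelled BCL6-insufficient lay among the wild-type mice, and the log2 fold change of 0.32 was not called (adjusted p = 0.0833 by edgeR's quasi-likelihood test).

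**Figure D2:**
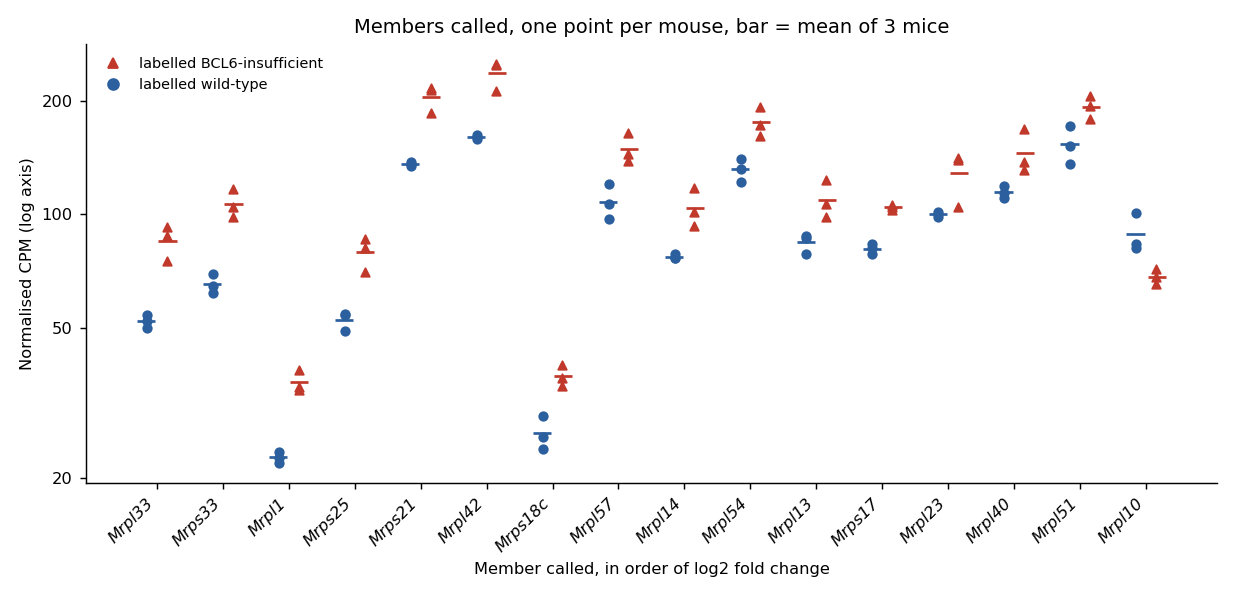
Normalised CPM on a log axis is plotted for the 16 called genes in order of log2 fold change, with triangles for the 3 mice labelled BCL6-insufficient, circles for the 3 labelled wild-type and bars for their means. The mice of the labels do not overlap for any of the 16, and *Mrpl10* at far right is the only gene with the wild-type mice above. The 16 were called on the difference between these same mice, so the lack of overlap is not separate evidence for the calls.

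A high level and a call did not always go together. After *Mrps21*, the most abundant per kilobase of exon were *Mrpl18* (221 CPM per kilobase), *Mrpl54* (186), *Mrpl41* (148) and *Mrpl27* (131). Exon length here merges all exons of a gene and can far exceed a transcript, as in *Mrpl42* with 3682 against 661 bases. An order by transcript length was not made and could differ. The product of *Mrpl18* also takes part in import of 5S ribosomal RNA into mitochondria. It had 328, 319.9 and 349.6 CPM against 280.3, 289 and 287 CPM, so the groups did not overlap, but the log2 fold change of 0.22 (SE 0.09) was not called (adjusted p = 0.0928 by edgeR's quasi-likelihood test). *Mrpl41* (log2 fold change 0.25) and *Mrpl27* (0.28) also had all mice labelled BCL6-insufficient above the others without being called. Of the 61 genes not called, 43 had a log2 fold change above 0 and 18 below, and in 11 (18%) the mice labelled BCL6-insufficient all lay higher. Among all 10431 tested genes not called, 10.5% did so.

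Summed over the 77 genes, the level was 6427, 6566 and 7416 CPM in the mice labelled BCL6-insufficient and 5859, 5967 and 6086 CPM in those labelled wild-type. By mouse the groups did not overlap, and their means of 6803 ± 535 (SD, n = 3) and 5971 ± 113 (SD, n = 3) differed by 13.9% (log2 ratio 0.19, or 0.064 on the TPM scale). By library they did overlap. Wild-type mouse 3, repeat 1, had 6370 CPM, above 6277 and 6252 in repeat 1 of mice 1 and 2 labelled BCL6-insufficient. The 15 genes called higher made up 63.6% of the difference in summed CPM between the labels. They were called on that difference in the same mice, and the total nets out genes below 0, so a large share follows from the choice. Mouse 3 labelled BCL6-insufficient was the highest of the 6 mice for 39 of the 77 genes. Without it the log2 ratio of the sums was 0.12 and the genes called higher fell from 15 to 9, and without mouse 3 labelled wild-type they also fell to 9 while the ratio was 0.20. The share of all genes tested called higher fell as well, from 9.17% to 7.3% and 5.52% in these fits.

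Both subunits stood higher, the large one by 12.6% and the small one by 16.8% in summed CPM. The large subunit sum was 4391, 4475 and 5068 CPM against 4026, 4130 and 4215 CPM, and the small subunit sum 2036, 2091 and 2348 CPM against 1834, 1838 and 1871 CPM. By library the large subunit sums overlapped. Wild-type mouse 3, repeat 1, had 4393 CPM, above 4280 and 4268 in repeat 1 of mice 1 and 2 labelled BCL6-insufficient. The ratio of the large to the small sum was 2.156, 2.140 and 2.159 in the mice labelled BCL6-insufficient and 2.195, 2.247 and 2.253 in those labelled wild-type. By mouse the ratios did not overlap, but a wild-type library (mouse 1, repeat 1) had 2.10, below all libraries of the other label. An exact permutation test of 3 against 3 mice cannot give a p below 0.1, and none was run on the sums.

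**Figure D3:**
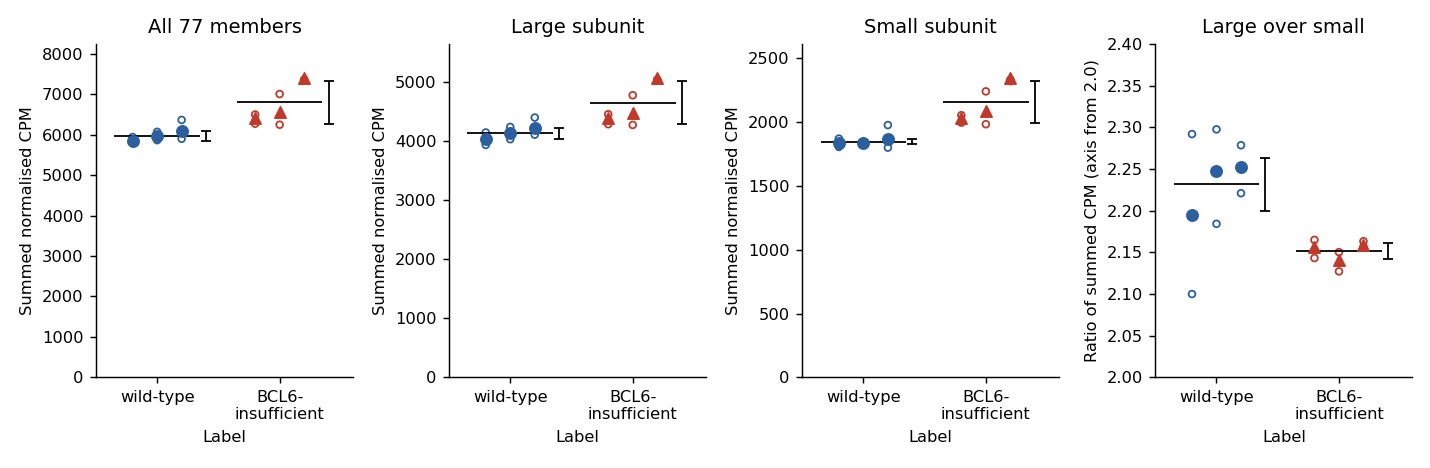
Summed normalised CPM of all 77 genes, of the large subunit and of the small subunit, and the ratio of the last pair, are plotted by label, with filled symbols for the 3 mice, open circles for their 2 technical repeats, a line for the mean and a bar for ± SD. The sums of the mice labelled BCL6-insufficient lie above the others in each panel, and the ratio (axis from 2.0) lies lower with 1 wild-type library below. By library the sums of all 77 genes and of the large subunit overlap between the labels.

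Counted by symbol, the median log2 fold change was 0.10 in the large subunit and 0.13 in the small one. Without mouse 3 labelled BCL6-insufficient the medians were 0.031 and 0.067, and on log2(TPM + 1) their signs turned, to -0.032 and -0.0022. The difference of -0.026 between the subunits was not stable. It was 0.022 from technical repeat 1 alone and -0.079 from repeat 2 alone. With *Mrps30* and *Mrps18a* counted in the large subunit and *Mrps36* left out, the medians were 0.065 over 50 genes and 0.13 over 26 genes. Genes with a bacterial counterpart (46, of which 8 were called higher and 1 lower) had a median of 0.13, and the other 31 (7 higher, 0 lower), which include *Mrps18a* and *Mrps18b* as paralogs of the counterpart *Mrps18c*, a median of 0.081. Between mice of a label the difference of the subunit medians had an SD of 0.035, larger than the -0.026 between the labels.

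The higher genes were mostly short. The 39 genes with a median protein-coding transcript of up to 1056 bases had 11 called higher, 0 lower and a median log2 fold change of 0.24, and the 38 longer ones had 4 higher, 1 lower and a median of 0.038. Short transcripts in general stood higher, since among all 3546 tested genes of that length or less 12.9% were called higher and 7.53% lower with a median of 0.11. Within the members' range of mean CPM as well, the 1297 such genes had 17.9% called higher and 11.8% lower, against 28.2% and 0% for the 39. Over the 77 genes, Spearman's rho of the log2 fold change was -0.35 with transcript length and 0.39 with mean CPM, against -0.024 and -0.063 over all genes tested. These rho describe genes that share the same libraries, and no p is given.

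With the trends of GC content and exon length removed in each mouse, 13 genes were called higher and 1 lower (8.31% and 8.01% of all genes tested), with a median of 0.14, and 59 of the 77 lay above 0 against 50.3% of all genes tested. *Mrpl13* (adjusted p = 0.149) and *Mrps18c* (adjusted p = 0.134) lost their calls in that edgeR fit. The gene called lower was then *Mrpl15*, at -0.38, while *Mrpl10*, at -0.33, had an adjusted p of 0.0509 in that edgeR fit. *Mrpl33* had a log2 fold change of 0.68 with the exon length trend removed and 0.49 with that of the transcript length, and *Mrps33* one of 0.62 and 0.57, and both kept their calls. With the transcript length in place of the exon length the genes called higher numbered 13 and those called lower 0 (8.05% and 8.09% of all genes tested), but only 11 of the 15 were among the 13. *Mrpl13* (0.27), *Mrps18c* (0.34), *Mrps17* (0.28) and *Mrpl51* (0.29) lost their calls with smaller log2 fold changes above 0, and *Mrpl18* (adjusted p = 0.0332) and *Mrps24* (adjusted p = 0.0447) gained one in that edgeR fit.

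**Figure D4:**
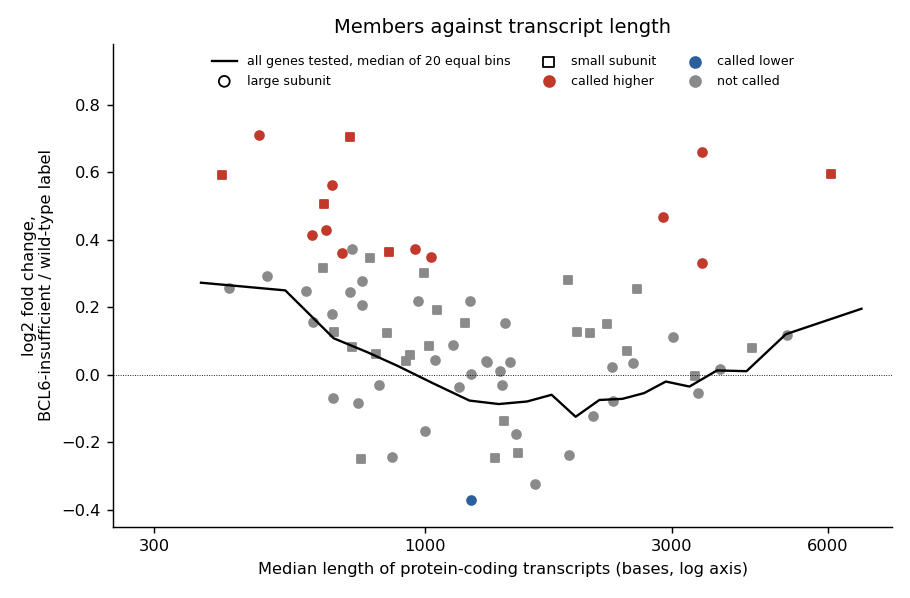
The log2 fold change of each of the 77 genes is plotted against the median length of its protein-coding transcripts in bases on a log axis, with circles for the large and squares for the small subunit. The black line, the median of all tested genes in 20 equal bins, is above 0 for short transcripts, and most red points (called higher) lie above the line at the short end.

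The related lists are described beside the 9.17% of all genes tested that were called higher and the 8.82% called lower, and no difference between lists was tested. Of 5 ribosomal proteins under other symbols, 0 were called by edgeR's quasi-likelihood test or DESeq2, although 3 were higher and 1 lower at an unadjusted p under 0.05. With GC and length trends removed, or from repeat 2 alone, 2 were called higher, and 1 was with upper-quartile scaling, at least 10 counts in every library or the replicate block. Of the 5, 4 had a log2 fold change above 0, among them *Gadd45gip1* (0.27), *Chchd1* (0.27) and *Aurkaip1* (0.25), and *Dap3* stood at -0.24. Of 16 translation factors 0 were called higher (0 also by DESeq2 and 0 at an unadjusted p under 0.05) and 2 lower. These were *Tufm*, which encodes the elongation factor that brings aminoacyl-tRNA to the ribosome (log2 fold change -0.52, adjusted p = 0.00825 by edgeR's quasi-likelihood test), and its exchange factor *Tsfm* (-0.44, adjusted p = 0.0395 by the same test). The lower calls fell to 0 without wild-type mouse 3 or from repeat 1 alone, and to 1 without wild-type mouse 1, without mouse 2 labelled BCL6-insufficient, with upper-quartile scaling, with GC and length trends removed and on the TPM scales, and rose to 3 without mouse 3 labelled BCL6-insufficient. The median over the 16 was -0.023, or 0.011 with upper-quartile scaling, and ran from -0.14 to 0.063 when a mouse was left out.

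Of 22 mitochondrial aminoacyl-tRNA synthetases, which charge tRNAs, 1 was called higher (*Lars2*, 0.65) and 2 lower (*Fars2*, -0.69, and *Gars*, -0.35, which also serves the cytosol), with a median of -0.18. The lower calls fell to 0 without wild-type mouse 3 (median -0.045), without mouse 3 labelled BCL6-insufficient (-0.16) and from repeat 1 (0.035) or repeat 2 (-0.23) alone, and to 1 without any of the other 4 mice and with upper-quartile scaling. With GC and exon length trends removed 1 was called lower and with transcript length 0, and on the TPM scales *Lars2* too lost its call, with 0 called in either direction. *Lars2* stood at 975 CPM in the mice labelled wild-type, where the median of the list was 21 CPM over both labels. Of 29 genes of ribosome assembly and rRNA modification, 1 was called higher, *Malsu1* (0.49), whose product keeps an immature large subunit from joining the small one, and 0 were lower (0 also by DESeq2 and 2 at an unadjusted p under 0.05). Of the 6 fits that left out a mouse, the one without mouse 1 labelled BCL6-insufficient had a gene of this list called higher, and from either repeat alone, on the TPM scales and with transcript length trends removed 0 were. Without mouse 3 labelled BCL6-insufficient 1 was called lower. Of 24 genes of mitochondrial transcription and RNA stability, 3 were called higher, including *Slirp* (0.67) and *Ssbp1* (0.43), and 3 lower, including the RNA polymerase *Polrmt* (-0.55) and *Grsf1* (-0.53), which binds RNA in mitochondrial granules. The lower calls fell to 0 without mouse 2 labelled BCL6-insufficient, without wild-type mouse 2 or 3 and from repeat 2 alone, and to 1 without mouse 1 or 3 labelled BCL6-insufficient, from repeat 1 alone, with upper-quartile scaling, with transcript length trends removed and on the TPM scales. The higher calls fell to 1 without wild-type mouse 1, from repeat 2 alone and on the TPM scales.

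Genes encoded in mitochondrial DNA, respiratory chain subunits and the cytosolic ribosome had larger medians. Of 23 tested genes encoded in mitochondrial DNA, 12 were called higher and 1 lower (*mt-Ty*, -0.50), with a median of 0.68, and 7 were higher with a median of 0.32 once GC and length trends were removed. On log2(TPM + 1) 6 were called higher, with a median of 0.53. The lower call was lost without mouse 1 or 3 of either label, from repeat 1 alone and on the TPM scales. The 12 messenger RNAs among the 23, which the mitochondrial ribosome translates, had 9 called higher and a median of 0.85, or 6 and 0.53 with GC and length trends removed, and *mt-Nd4* (1.01) and *mt-Nd6* (1.48) led by p. The ribosomal RNAs stood at 0.19 for *mt-Rnr1* of the small subunit, not called, and at 0.35 for *mt-Rnr2* of the large subunit, called higher (adjusted p = 0.00825 by edgeR's quasi-likelihood test). The library preparation primes on poly(A), so levels of the ribosomal RNAs rest on adenylated or internally primed molecules.

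Of 76 nuclear-encoded subunits of the respiratory chain and ATP synthase, 38 were called higher and 9 lower with a median of 0.26, among them *Atp5md* (0.76) and *Uqcrb* (0.68) higher and *Sdhd* (-0.96) and *Sdha* (-0.64) lower. Of 84 tested cytosolic ribosomal protein genes, 55 were called higher, including *Rps12* (0.93) and *Rps24* (0.85), and 1 lower, *Rpl7l1* (-0.44), with a median of 0.43. On log2(TPM + 1) the medians of these lists were 0.12 and 0.30 with 17 and 29 genes called higher. The lower calls of the respiratory chain fell to 5 without wild-type mouse 3 and to 4 from repeat 1 alone, and rose to 13 with the replicate block. Those of the cytosolic ribosome numbered 0 without mouse 2 of either label or from repeat 1 alone. They numbered 3 without mouse 3 labelled BCL6-insufficient or with the replicate block. The lists share the same 6 mice.

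**Figure D5:**
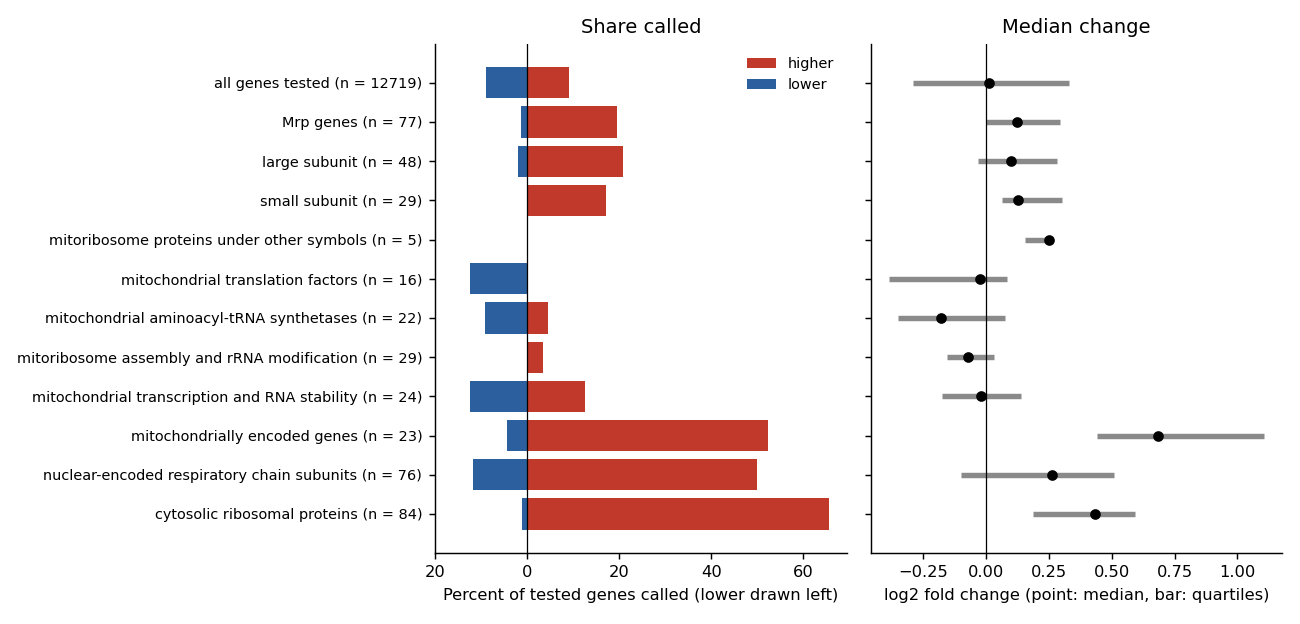
The left panel plots the percent of tested genes called higher (red) and lower (blue, drawn to the left) in all genes, in the 77 genes and their subunits, and in 8 related lists, and the right panel the median log2 fold change with its quartiles. The 77 genes (19.5% higher) lie between all genes tested (9.17%) and the cytosolic ribosomal proteins (65.5%).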

How the data were processed

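Per the labels and the study's methods, the authors aligned reads to GRCm38 with HISAT2 2.2.1, counted them per gene with HTSeq, and deposited raw counts and TPM values. Annotation release, strandedness and the gene lengths behind the TPM are not given in the sources used here. Here both repeats of a mouse were added up as 1 replicate, and edgeR 4.0.16 (R 4.3.3) compared 3 mice of each label (TMM, filterByExpr, quasi-likelihood test, Benjamini-Hochberg adjustment over all 12719 genes tested). The SE is the log2 fold change over the root of F. Normalised CPM are counts scaled to the TMM-adjusted library size. Depth was 3343375 to 8315722 counts per library. The libraries had no molecular identifiers, so reads are not separate molecules.

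Symbols were matched to GENCODE M21 of GRCm38 (548 of 24561 not found) for coordinates, lengths and GC content, and trends were removed with offsets fitted by mgcv 1.9.3. The 77 members and the related lists were chosen with earlier results of these data known. Genes named were *Bcl6*, the 5 called members of smallest p per subunit and direction with no overlap, the 5 highest in CPM per kilobase, members with a second role, the extremes of fold change, and at most 2 called genes per direction of each related list. Other genes were named after their values were seen, to complete a count. Alternatives were DESeq2 1.42.0, limma 3.58.1 on log2(TPM + 1) and log2(TPM + 0.1), other scalings and filters, each repeat alone, the replicate number as a block, trend removal and leaving out each mouse. In 1 simulated data set of 12719 genes with 200 changed 2-fold, edgeR recovered 60% with 4% of calls false. Pseudogene rows (4, at most 43 counts in a library) were left out of the members.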

Additional observations from a re-analysis of the deposited data

Results flagged for a closer look

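Over the 6 libraries of a label, 52 groups of values were screened for a library far from the others, which chance alone gives in about 1 in 20 groups, and 2 stood out. The library of mouse 3, repeat 1, labelled BCL6-insufficient had 47.3 CPM of *Mrps18b*, while the other 5 libraries of that label lay between 22.8 and 29.3 CPM. This library had the fewest counts of the 12. The library of mouse 1, repeat 1, labelled wild-type had 33.8 CPM of *Mrps18c*, while the others of that label lay between 21.4 and 26.0 CPM.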

How the results depend on the processing

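Of the 20 alternatives, *Mrps33*, *Mrps21*, *Mrps25* and *Mrpl42* were called higher in every one, and all 15 genes called higher stayed above 0. Leaving out each mouse gave 9 to 16 genes called higher, 0 to 1 lower, 1424 to 1972 of all genes called, medians of 0.049 to 0.16 (all 77), 0.031 to 0.16 (large) and 0.067 to 0.16 (small), a large-minus-small difference of -0.071 to 0.0039 and a log2 ratio of sums of 0.12 to 0.23. On log2(TPM + 1), 4 genes were called higher and 0 lower, 1305 of all genes were called (3.07% higher, 7.2% lower), the medians were -0.0074, -0.032 and -0.00223 and the ratio of sums 0.064. On log2(TPM + 0.1) there were 4 and 0 of 1260, with medians of -0.0074, -0.032 and -0.00169 where all genes had -0.11. Repeat 1 alone gave 5 higher and 0 lower of 1059 genes called and a large-minus-small difference of 0.022, and repeat 2 alone 1446 genes and -0.079. That difference was -0.078 with GC and length trends removed, -0.080 with the replicate block added, -0.063 with transcript length and -0.062 with structural subunits. The genes called lower numbered 0 with upper-quartile scaling and with transcript length (the latter, and a fit without the library of wild-type mouse 2, repeat 1, were chosen after seeing the data) and 2 with trends removed and the replicate block. The causes were not tested.

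*Mrps30* changed sign with upper-quartile scaling (0.030), at least 10 counts in every library (0.00061), repeat 2 alone (0.33), the replicate block (0.0090) and without that library (0.046), and *Mrpl12* on repeat 2 (-0.013), on TPM (-0.133 and -0.134 with pseudocounts of 1 and 0.1) and without that library (-0.012). On TPM, *Mrps18b* stood at -0.021 and -0.022 and *Mrpl58* at -0.069 and -0.070. Leaving out each mouse gave a range of -0.12 to 0.15 for *Mrps30*, -0.14 to 0.26 for *Mrps18b*, -0.24 to 0.16 for *Mrpl12* and -0.069 to 0.17 for *Mrpl58*.

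Replicate numbers did not pair the mice (correlations of 0.085, -0.028 and 0.025 between same-numbered mice, and not every mouse correlated best with its own number). With the replicate block, 16 genes were called higher and 1 lower, with a median of 0.12. In simulated counts over all tested genes, whose median level (17.7 CPM) is below that of the members (70.6 CPM), 60% of 2-fold changes were recovered. The members called higher had folds of 1.26 to 1.64.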
